A study of Mus musculus with 8 samples.

Results

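The voltage-gated calcium channel and transient receptor potential (TRP) channel genes were followed in the neocortex of Bcl6 mutant and control mouse pups. The members were every gene whose symbol starts with Cacn, or is Trpc, Trpm or Trpv with a number, and for which a probe set named that gene alone. For genes with more than 1 such probe set, the brightest on average was used. This gave 43 of the 19938 genes measured, 24 Cacn and 19 Trp genes. Cacnb3, Cacng6 and Trpc2 were not analysed here.

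Cortical layers II-IV were cut out by laser microdissection at postnatal day 5, and the total RNA of each pup was read on its own Affymetrix array (Mouse Gene 1.0 ST). The 4 mutant pups were Bcl6 flox/flox with Cre on 1 allele of Nex (Nex Cre/+), and the 4 control pups were Bcl6 flox/flox with no Cre (Nex +/+), so both groups carried the floxed Bcl6 alleles. Nex is another name of Neurod6, a gene of excitatory cortical neurons, so Cre is made in those neurons and other cells of the tissue keep an intact Bcl6. Effects of Cre or of the changed Nex allele cannot be told apart from those of losing Bcl6, because no control carried Cre. The series is about the role of Bcl6, a zinc-finger transcriptional repressor, in the death of projection neurons during cortical development, and here its comparison is read for the channel genes.

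A voltage-gated calcium channel consists of a pore-forming alpha1 subunit (Cacna1 genes), which senses voltage and conducts calcium, with an extracellular alpha2delta subunit (Cacna2d) and an intracellular beta subunit (Cacnb) that bring it to the membrane and tune its gating. T-type channels open near the resting potential, L-type channels couple activity to gene expression, and P/Q-, N- and R-type channels trigger transmitter release. Most neuronal gamma subunits (Cacng) are better known as TARPs, partners of AMPA-type glutamate receptors. TRP channels are cation channels: TRPC channels open downstream of phospholipase C, TRPM channels include calcium-activated, oxidant-sensitive and kinase-fused forms, and TRPV channels include heat sensors and calcium-selective epithelial channels.

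BCL6 is known to bind sites that resemble those of STAT factors, so the promoters of the members were searched for the letters TTCNNNGAA and TTCCTAGAA on both strands. Windows of 250 bases before the start site were taken from RefSeq (GRCm38.p6), and 36 of the 43 members had 48 such windows. Every TTCCTAGAA is also a TTCNNNGAA. The looser pattern, TTCNNNGAA, was found in 4 of the 48 windows (8.33%), against 7.02% of all 32851 windows, and belonged to Cacna1c, Cacna1i, Trpm8 and Trpv6. TTCCTAGAA was found in 1 of the 48, that of Trpv6, against 0.347% of all windows. Of these windows, 3 are shown 5′ to 3′ in lower case, with any TTCNNNGAA in capitals: those of Trpc5 (chrX:144688181-144688430, minus strand) and Trpm2 (chr10:77969873-77970122, minus strand), because these 2 genes had the smallest p of the set, and that of Trpv6 (chr6:41636406-41636655, minus strand), because it alone holds TTCCTAGAA. A match describes the letters of the window and no more.
Trpc5: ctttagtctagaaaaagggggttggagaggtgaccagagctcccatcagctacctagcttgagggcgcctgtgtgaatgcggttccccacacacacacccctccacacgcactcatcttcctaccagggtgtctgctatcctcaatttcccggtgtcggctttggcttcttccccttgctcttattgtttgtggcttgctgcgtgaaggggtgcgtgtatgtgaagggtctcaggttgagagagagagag
Trpm2: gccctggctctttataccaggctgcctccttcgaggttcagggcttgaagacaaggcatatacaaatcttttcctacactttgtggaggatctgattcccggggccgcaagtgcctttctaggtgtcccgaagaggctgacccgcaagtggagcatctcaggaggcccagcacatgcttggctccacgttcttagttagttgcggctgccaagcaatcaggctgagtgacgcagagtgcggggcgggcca
Trpv6: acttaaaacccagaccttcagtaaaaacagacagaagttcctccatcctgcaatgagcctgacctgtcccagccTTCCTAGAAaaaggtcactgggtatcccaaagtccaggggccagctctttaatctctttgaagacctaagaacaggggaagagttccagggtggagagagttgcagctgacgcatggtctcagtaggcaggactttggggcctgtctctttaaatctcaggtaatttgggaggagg

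The targeted loci and the make-up of the arrays were checked first. Bcl6 read 6.61, 6.76, 6.96 and 6.78 in mutant replicates 1 to 4, against 6.55, 6.58, 6.25 and 6.23 in control replicates 1 to 4, with every mutant array above every control array (limma adjusted p = 0.655). It is not known here how many of its probes target the floxed exons. The Bcl6 value is therefore no check of deletion or labelling, and every direction below rests on the labels. Neurod6 read 8.84, 9.07, 8.69 and 8.73 in mutants, against 9.17, 9.41, 9.15 and 9.15 in controls. Xist, the RNA of the inactive X chromosome, was high in mutant replicates 1 (9.78) and 4 (9.76), while the other 6 arrays had 2.64 to 3.41. The Y-linked Eif2s3y, Kdm5d and Uty read 2.3 to 3.1 in those same mutants and 5.5 to 7.8 on the other 6 arrays. Mutant replicates 1 and 4 thus read as female and the other 6 arrays, every control among them, as male. Sex was therefore not balanced between the genotypes, which limits every comparison below. Some members that differed by 0.1 or more in size are given with and without mutant replicates 1 and 4. They are those that moved by over 1.5 times without these arrays, or had an unadjusted p under 0.05 with or without them. Markers of excitatory neurons averaged 8.99 to 9.15 (log2) per mutant array and 8.93 to 9.20 per control array. That list includes Neurod6, the gene that carries Cre in mutants, so its average is not free of the design. Layer IV markers averaged 7.49 to 7.68 and 7.48 to 7.74 in mutants and controls. Of the layer IV list Cdh8, a cadherin, fell by 0.63 ± 0.081 (8.55 in mutants, 9.18 in controls; limma adjusted p = 0.0217), the only call among the marker lists. Median differences of the lists for interneurons, astrocytes, oligodendrocytes, endothelium, mural and meningeal cells and red blood cells lay between -0.097 and 0.055. The table holds no detection calls, so neither the presence nor the absence of a cell type can be read from these levels.

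No channel gene passed the test for a genotype difference. Of the 43 genes, 0 rose and 0 fell (limma, Benjamini-Hochberg over all 19938 genes), where 0.0502% of all genes rose, 0.015% fell and 0.0652% did either, and the smallest adjusted p was 0.893. At an unadjusted p under 0.05, 0 members were higher and 2 were lower in mutants, Trpc5 and Trpm2, which is 4.65% of the members against 3.28% of all genes lower, 1.64% higher and 4.91% in either direction. The same 2 were the only members whose groups did not overlap, against 1.79% of all genes lower and 2.75% in either direction. Counts of 2 in 43 lie near this background. Differences ran from -0.27 to 0.16 on the log2 scale with a median of -0.025, beside -0.0096 over all genes, and 18 of 43 (41.9%) were positive, beside 44.6% of all genes. Trpm2, Trpm5 and Trpc5, 3 members or 6.98%, differed by more than 0.2 in size, against 4.31% of all genes. With a median standard error (SE) of 0.076, the 95% intervals of all 43 differences lay within 0.5 (1.41-fold) in either direction and those of 31 within 0.3 (1.23-fold). In tissue RNA, fewer cells of a type and less RNA per cell cannot be told apart, which holds for every value below.

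**Figure D1:**
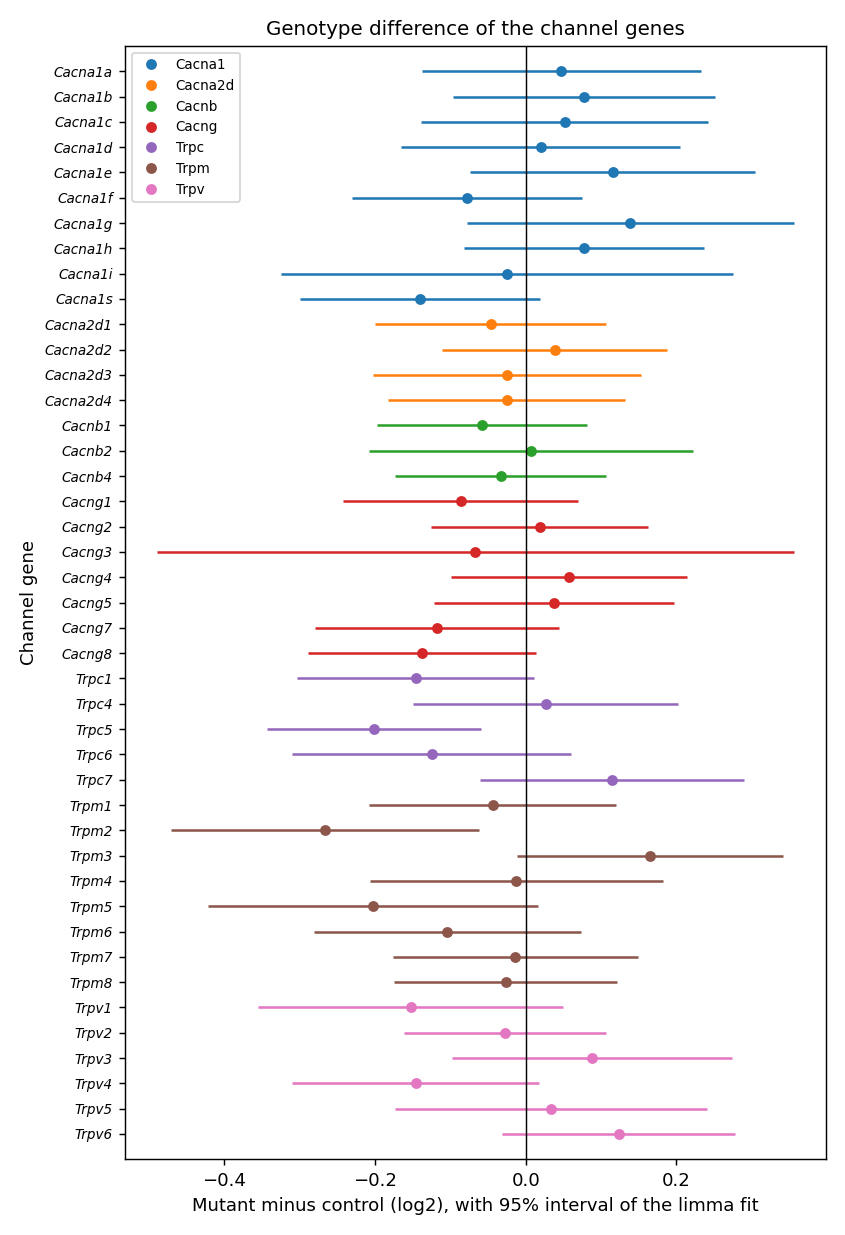
Difference between mutant and control pups (x axis, log2; points, with 95% intervals of the limma fit as lines) for each channel gene (y axis), coloured by subunit family, 4 arrays per group. Intervals of Trpc5 and Trpm2 lie below 0 before adjustment, and that of Cacng3 is the widest.

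In none of the 3 T-type pore genes were the genotypes separated. Cacna1g, a T-type pore of cortical and thalamic neurons, read 8.14, 8.18, 8.26 and 7.96 in mutant replicates 1 to 4, against 8.01, 8.20, 8.06 and 7.72 in control replicates 1 to 4. Control replicate 4 was the lowest of the 8 arrays and mutant replicate 3 the highest, and the groups overlapped. Its difference was 0.14 ± 0.10 (SE, n = 4 per group; 95% interval -0.078 to 0.36), and it was 0.047 without control replicate 4 and 0.22 without both arrays of high Xist (limma unadjusted p = 0.0951). For Cacna1h, a T-type pore known from sensory and thalamic neurons, the mutants read 7.27, 7.06, 7.22 and 7.13 and the controls 7.12, 7.20, 6.98 and 7.07, with 2 mutants above all controls and a difference of 0.077 ± 0.073. Cacna1i, the T-type pore with the slowest gating, read 7.78, 7.75, 7.89 and 7.57 in mutants, against 7.79, 8.11, 7.89 and 7.31 in controls. Controls 2 and 4 of this gene were the highest and the lowest of all 8 arrays, so the control SD of 0.34 was larger than the mutant SD of 0.13. The difference was -0.025 ± 0.14, and -0.18 without control replicate 4 (limma unadjusted p = 0.0893).

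Among L-type pores, Cacna1c, which couples synaptic activity to transcription, read 7.97, 7.89, 7.80 and 7.71 in mutants, against 7.87, 7.91, 7.82 and 7.56 in controls. The groups overlapped with a difference of 0.052 ± 0.088. Cacna1d, an L-type pore that opens at lower voltages, read 6.79, 6.62, 6.70 and 6.73 in mutants and 6.69, 6.93, 6.60 and 6.54 in controls. All 4 mutants lay between the lowest and the highest control (0.020 ± 0.085). The pores of skeletal muscle and retina, Cacna1s and Cacna1f, averaged 4.09 and 4.01 in mutants, against 4.23 and 4.09 in controls, with differences of -0.14 ± 0.073 and -0.078 ± 0.070. No Cacna1s mutant lay above the control median, and its exact permutation p was 0.0857 (two-sided; 0.0286 is the smallest that 4 against 4 arrays allow).

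The release-triggering pores also overlapped between genotypes. Cacna1a, the P/Q-type pore, read 8.10, 7.89, 8.20 and 7.99 in mutants, against 7.94, 7.98, 8.17 and 7.89 in controls (0.047 ± 0.085). Cacna1b, the N-type pore that prevails at young synapses, read 9.06, 8.96, 9.14 and 9.09 in mutants, against 9.04, 9.12, 9.0 and 8.78 in controls (0.078 ± 0.080). Cacna1e, the R-type pore, read 8.57, 8.46, 8.60 and 8.39 in mutants, against 8.43, 8.52, 8.44 and 8.15 in controls. For Cacna1e, 2 mutants lay above all controls, and its difference of 0.12 ± 0.087 had a 95% interval of -0.074 to 0.30. Without control replicate 4 it was 0.037.

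**Figure D2:**
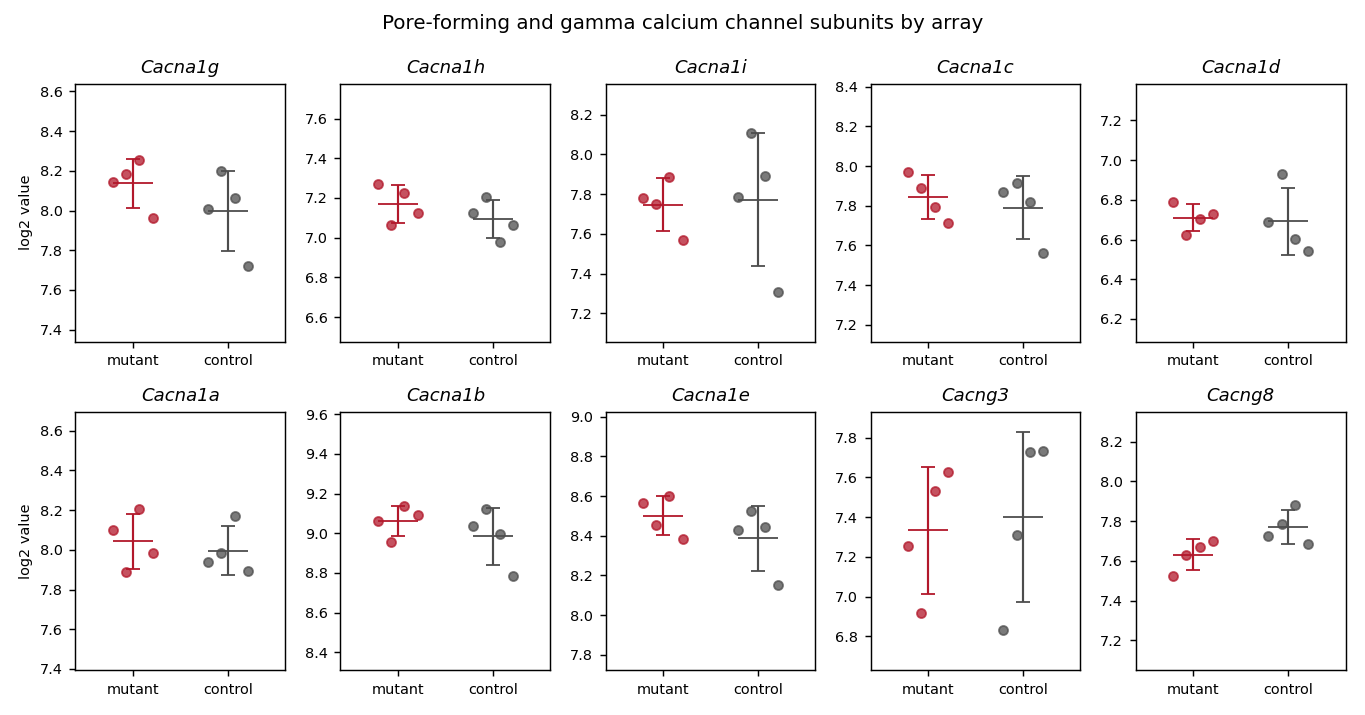
Deposited log2 values (y axis, the same span in each panel) of 8 pore-forming and 2 gamma subunit genes in 4 mutant and 4 control pups, with a point per array from replicate 1 on the left to 4 on the right, a bar for the mean and whiskers for the SD. Every gene overlaps between groups, and the lowest point of Cacna1b, Cacna1c, Cacna1d, Cacna1e, Cacna1g and Cacna1i is control replicate 4.

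Among the pore genes, low values were frequent on the replicate 4 array of either genotype. Mutant replicate 4 had the lowest mutant value in 6 of the 10 Cacna1 genes and the lowest of all 8 arrays in 2. Control replicate 4 had the lowest control value in 7 of the 10 Cacna1 genes and the lowest of all 8 arrays in 6, while control replicate 2 had the highest control value in 8. Over all 43 members, mutant replicate 4 was the lowest mutant in 15 and control replicate 4 the lowest control in 17. The 19 Trp genes did not share this. Among them mutant replicate 4 was the lowest mutant in 5, against 6 for mutant replicate 3. Control replicate 4 was the lowest control in 5, against 7 for control replicate 1. On control replicate 4 the 10 excitatory neuron markers averaged 8.93 and the 9 layer IV markers 7.48, each the lowest of the 8 arrays. Rorb, a gene of both lists, read 9.81 in mutant replicate 4 and 9.35 in control replicate 4, and 10.32 to 10.50 on the other 6 arrays. The part of these markers in the pore gene values was not tested. With all arrays, 7 of the 10 Cacna1 differences were positive with a median of 0.049, and without control replicate 4, 5 of 10 were positive with a median of -0.0070. Trpm3 was also low on that control array, at 8.32 in control replicate 4 and 8.62 ± 0.057 (SD, n = 3) in the other controls.

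**Figure D3:**
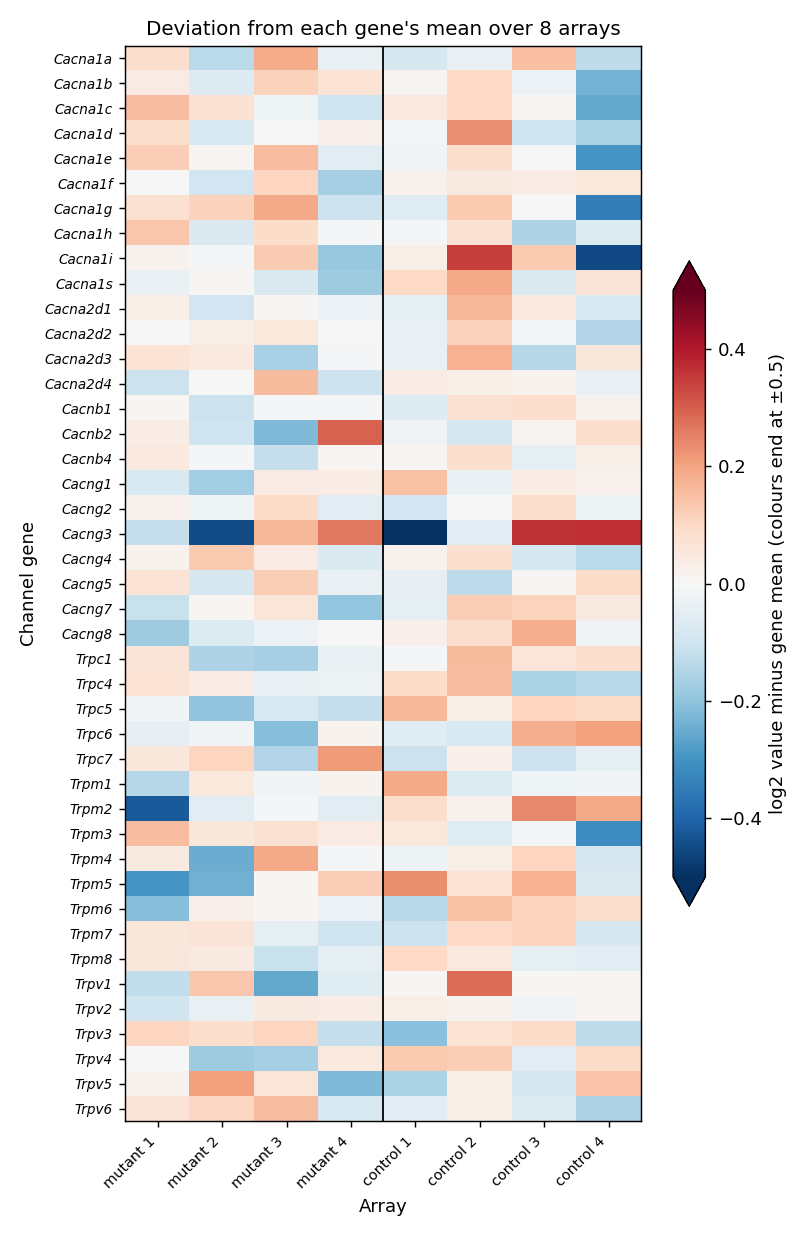
Deviation of each array (x axis, mutants on the left) from the gene's mean over 8 arrays, for each channel gene (y axis), as colour on a log2 scale that ends at 0.5 in either direction. Control replicate 4 has the lowest value of 6 of the 10 Cacna1 genes, and Cacng3 and Cacna1i show the widest swings between arrays of the same genotype.

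None of the alpha2delta genes separated the genotypes. Cacna2d1, a gabapentin target that also serves as a thrombospondin receptor in synapse formation, read 10.44, 10.32, 10.42 and 10.38 in mutants, against 10.37, 10.58, 10.46 and 10.34 in controls (-0.047 ± 0.070). Its other probe set averaged 10.27 in mutants and 10.28 in controls, a difference of -0.0079 ± 0.069. Cacna2d2, an alpha2delta subunit whose loss causes ataxia and epilepsy in mice, read 7.19, 7.22, 7.25 and 7.19 in mutants and 7.16, 7.31, 7.18 and 7.05 in controls. The 4 mutants lay within the range of the controls (0.039 ± 0.069). Cacna2d3 read 7.41, 7.39, 7.18 and 7.34 in mutants, against 7.31, 7.52, 7.20 and 7.40 in controls (-0.025 ± 0.082), and Cacna2d4, an alpha2delta subunit of photoreceptors, averaged 4.91 in mutants and 4.94 in controls.

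Of the beta subunits, Cacnb1 read 8.02, 7.90, 8.0 and 8.0 in mutants, against 7.94, 8.08, 8.09 and 8.02 in controls. All mutants lay below the control median, with a difference of -0.058 ± 0.064. Cacnb4, the subunit mutated in the lethargic mouse, read 7.99, 7.93, 7.82 and 7.95 in mutants, against 7.94, 8.02, 7.89 and 7.97 in controls (-0.033 ± 0.065). Cacnb2, the main beta subunit of the heart, read 4.55, 4.41, 4.29 and 4.81 in mutants and 4.49, 4.42, 4.52 and 4.59 in controls, so that mutant replicates 3 and 4 were the lowest and the highest of all arrays (0.0065 ± 0.099).

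Of the 7 gamma subunit differences, 3 were positive and 4 negative, with a median of -0.067. The median was 0.024 without mutant replicate 2, 0.040 without control replicate 3 and 0.013 without control replicate 4, with 4 of 7 positive each time, so its sign rests on single arrays. Cacng2, which encodes stargazin, read 9.27, 9.22, 9.34 and 9.19 in mutants, against 9.15, 9.24, 9.33 and 9.22 in controls (0.019 ± 0.066), and its other probe set differed by -0.0041 ± 0.091. Cacng3, a cortical TARP, read 7.25, 6.92, 7.53 and 7.63 in mutants, against 6.83, 7.31, 7.73 and 7.73 in controls. Low and high arrays occurred in both genotypes, with mutant replicate 2 and control replicate 1 at 6.92 and 6.83, and mutant replicate 4 and control replicates 3 and 4 at 7.63, 7.73 and 7.73. Its SD within groups was 0.378, larger than that of 99.7% of all genes, against a median of 0.10 over the members and 0.11 over all genes. The interval of its difference, -0.49 to 0.36, was therefore the widest of the 43. Cacna1i, with an SD within groups of 0.256, was the only other member above 0.2.

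Cacng4, a TARP of the developing forebrain and of oligodendrocyte precursors, read 9.59, 9.71, 9.62 and 9.5 in mutants, against 9.60, 9.66, 9.5 and 9.44 in controls (0.057 ± 0.072). Cacng5, which modulates AMPA receptors of other subunit make-up, read 6.47, 6.32, 6.52 and 6.36 in mutants and 6.36, 6.27, 6.41 and 6.49 in controls (0.038 ± 0.073). Both genes overlapped between genotypes. Cacng7 read 8.76, 8.88, 8.93 and 8.68 in mutants, against 8.83, 9.0, 8.99 and 8.92 in controls, and Cacng8, a hippocampal and cortical TARP, read 7.52, 7.63, 7.67 and 7.70 in mutants, against 7.72, 7.79, 7.88 and 7.68 in controls. In Cacng7 and Cacng8 no mutant exceeded the control median, with differences of -0.12 ± 0.074 and -0.14 ± 0.070. That of Cacng7 was -0.073 without mutant replicate 4 and -0.024 without both arrays of high Xist. The exact permutation p of Cacng8 was 0.0571 (two-sided) and its limma adjusted p over all genes 0.9995. Cacng1, the gamma subunit of skeletal muscle, averaged 5.37 in mutants and 5.46 in controls.

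Of the 5 TRPC differences, 2 were positive and 3 negative, with a median of -0.12. Trpc5 was the channel gene with the smallest p. It encodes a TRPC pore of cortical, hippocampal and amygdala neurons that lies on the X chromosome. It read 8.70, 8.51, 8.64 and 8.60 in mutant replicates 1 to 4, against 8.88, 8.75, 8.82 and 8.81 in control replicates 1 to 4. All 4 mutants lay below all 4 controls. The means were 8.61 ± 0.08 (SD) in mutants and 8.81 ± 0.05 in controls, a difference of -0.20 ± 0.066 (SE; 95% interval -0.34 to -0.059), so that controls read 1.15-fold more. The exact permutation p was 0.0286 (two-sided). Any gene whose groups do not overlap has this value, so it only restates the separation. Limma's unadjusted p was 0.00926 and the adjusted p 0.893, so the gene did not pass. Without mutant replicates 1 and 4, the arrays of high Xist, the difference was -0.24 (limma unadjusted p = 0.0152). Over 21 alternative settings it lay between -0.24 and -0.17 and its unadjusted p between 0.0031 and 0.029, with adjusted p from 0.610 to 1.00.

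Its closest relative and a partner overlapped between genotypes. Trpc4, which pairs with TRPC5 in neurons, read 9.13, 9.10, 9.03 and 9.04 in mutants, against 9.15, 9.22, 8.90 and 8.92 in controls. Its 4 mutants lay inside the range of the controls (0.026 ± 0.081). Trpc1, a subunit that joins both in mixed channels, read 8.10, 7.87, 7.86 and 8.0 in mutants, against 8.02, 8.19, 8.09 and 8.12 in controls, with no mutant above the control median (-0.15 ± 0.072; limma unadjusted p = 0.0664; exact permutation p = 0.0857, two-sided). Without the arrays of high Xist the Trpc1 difference was -0.23 (limma unadjusted p = 0.0158, adjusted p = 0.998). Trpc6, a diacylglycerol-gated channel, read 4.70, 4.73, 4.53 and 4.76 in mutants and 4.69, 4.67, 4.93 and 4.95 in controls (-0.12 ± 0.085). It differed by -0.075 without mutant replicate 3 and by -0.078 without control replicate 4. Trpc7, its near relative, averaged 4.40 in mutants and 4.29 in controls, with 3 mutants above all controls. The Trpc7 difference of 0.11 ± 0.081 was 0.18 without mutant replicate 3 (limma unadjusted p = 0.0296), 0.062 without mutant replicate 4 and 0.037 without both arrays of high Xist.

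**Figure D4:**
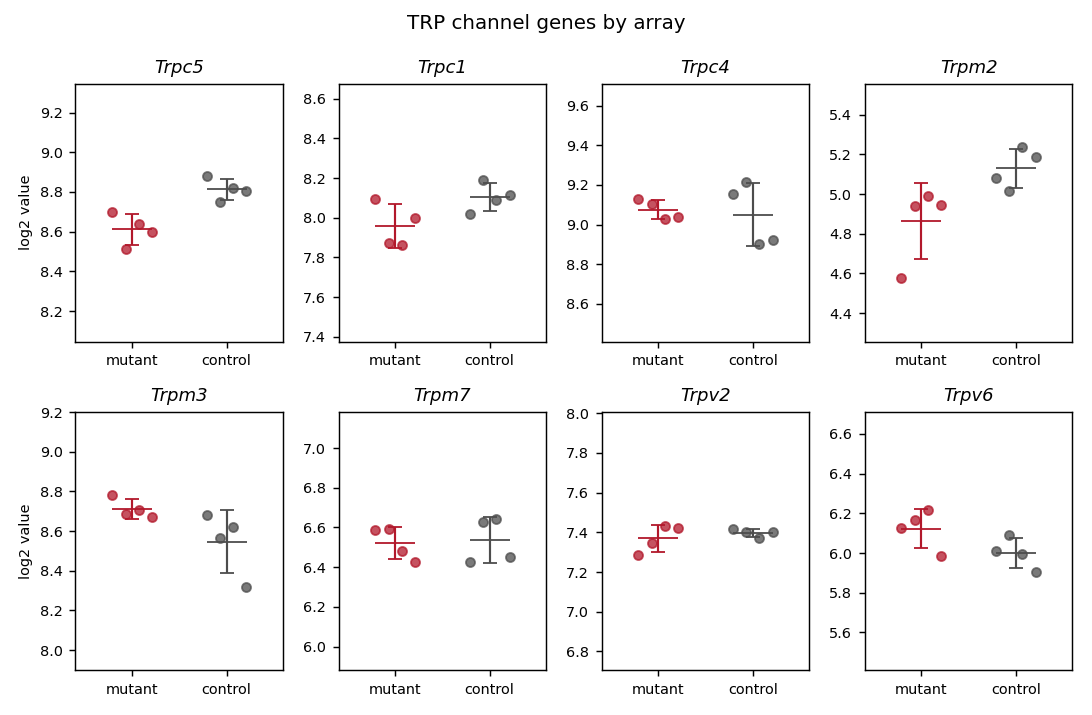
Deposited log2 values (y axis, the same span in each panel) of 8 TRP channel genes in 4 mutant and 4 control pups, with a point per array from replicate 1 on the left to 4 on the right, a bar for the mean and whiskers for the SD. Mutant points lie below control points in Trpc5 and Trpm2, and the other 6 genes overlap.

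Trpm2 was the second gene whose groups did not overlap. Its product is a cation channel opened by ADP-ribose and oxidative stress, known in microglia and in neurons. It read 4.58, 4.94, 4.99 and 4.94 in mutants, against 5.08, 5.02, 5.24 and 5.18 in controls. All mutants lay below all controls, and mutant replicate 1 was well below the other 3. Means were 4.86 ± 0.19 (SD) in mutants and 5.13 ± 0.10 in controls. The difference was -0.27 ± 0.094 (SE, 95% interval -0.47 to -0.063, limma adjusted p = 0.923). Its exact permutation p of 0.0286 (two-sided) again only restates the separation. Without mutant replicate 1 the difference was -0.17 (limma unadjusted p = 0.0394). Without both arrays of high Xist it was -0.16 (unadjusted p = 0.0905), and with mean Y-linked expression as a covariate -0.17 (unadjusted p = 0.137). Of 12 microglia marker differences, 10 were negative with a median of -0.11. Over all genes, 44.6% of differences were positive and the median was -0.0096. The mean level of the microglia markers was 4.34 to 4.45 per mutant array and 4.39 to 4.60 per control array. Their summed unlogged signal was 269 to 289 in mutants and 276 to 326 in controls. None of the 12 passed the test (smallest limma adjusted p 0.907), and their part in the Trpm2 difference was not tested. At a limma unadjusted p under 0.05, 0 of the 12 were higher and 2 lower, against 1.64% and 3.28% of all genes. Mean levels of the 12 markers over all arrays ran from 3.35 to 5.42. The marker Itgam, near the low end, averaged 3.30 in mutants and 3.40 in controls.

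Of the 8 TRPM differences, 7 were negative with a median of -0.035. The count was 6 under quantile normalization and 5 to 7 with single arrays left out, and of the 2 genes with a mean of at least 6, 1 was negative. The positive difference, of Trpm3, was the largest positive difference of the 43. Trpm3, a steroid- and heat-sensitive channel, read 8.78, 8.69, 8.71 and 8.67 in mutants, against 8.68, 8.57, 8.62 and 8.32 in controls. All mutants were above the control median and 3 were above all controls, with a difference of 0.16 ± 0.081 (95% interval -0.011 to 0.34; limma adjusted p = 0.9995; exact permutation p = 0.0571, two-sided). Without control replicate 4 the difference was 0.089. Markers of the choroid plexus, where Trpm3 is also known to be expressed, averaged 3.8 to 3.95 per mutant array and 3.87 to 3.92 per control array, with 3 of 8 differences positive, and their part was not tested. Trpm7, a magnesium-permeable channel fused to a kinase, read 6.59, 6.59, 6.48 and 6.43 in mutants and 6.42, 6.63, 6.64 and 6.45 in controls (-0.014 ± 0.075). Trpm4, a calcium-activated channel for monovalent cations, read 5.60, 5.31, 5.74 and 5.54 in mutants and 5.53, 5.58, 5.66 and 5.47 in controls (-0.012 ± 0.089). Trpm1, Trpm5, Trpm6 and Trpm8, known from retina, taste cells, kidney and cold-sensing neurons, averaged 3.14 to 3.71 in mutants and 3.19 to 3.82 in controls, and the largest of their differences was that of Trpm5 (-0.20 ± 0.10). The Trpm6 difference of -0.10 ± 0.082 was -0.050 without mutant replicate 1, -0.17 without control replicate 1 and -0.034 without both arrays of high Xist.

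Of the 6 TRPV differences, 3 were positive and 3 negative, with a median of 0.0033. This median lay between -0.024 and 0.034 with single arrays left out. It was 0.0655 without both arrays of high Xist, again with 3 positive and 3 negative. Trpv2, a channel of growing axons and immune cells, read 7.28, 7.35, 7.43 and 7.42 in mutants, against 7.42, 7.40, 7.37 and 7.40 in controls (-0.027 ± 0.062), with the smallest SE of the 43 genes. Trpv6, a calcium-selective epithelial channel and the member with TTCCTAGAA before its start, averaged 6.12 ± 0.10 (SD) in mutants and 6.0 ± 0.08 in controls. Its mutant replicates 1 to 3, at 6.13, 6.16 and 6.22, lay above all controls, whose highest was 6.09, and mutant replicate 4 read 5.99 (0.12 ± 0.071; limma adjusted p = 0.9995; exact permutation p = 0.114, two-sided). Without both arrays of high Xist the Trpv6 difference was 0.19 (limma unadjusted p = 0.0446, adjusted p = 0.998). Trpm8, Cacna1i and Cacna1c, whose windows hold only TTCNNNGAA, differed by -0.027 ± 0.068, -0.025 ± 0.14 and 0.052 ± 0.088. Trpv1, the capsaicin receptor, and Trpv4, a channel of osmotic and mechanical stimuli, differed by -0.15 ± 0.093 and -0.15 ± 0.076, and the keratinocyte channel Trpv3 and the kidney channel Trpv5 by 0.088 ± 0.086 and 0.034 ± 0.095. The Trpv1 difference was -0.093 without mutant replicate 3 and -0.085 without control replicate 2. That of Trpv4 was -0.24 without both arrays of high Xist (limma unadjusted p = 0.0159, adjusted p = 0.998). Of the 43 members, 28 had a mean of at least 5 over the arrays and 26 a mean of at least 6. Of the 15 with a mean below 5, 11 were TRP genes, among them Trpm2.

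Genes that act with these channels were examined through 4 lists with 109 genes tested. None passed in either direction in limma. At an unadjusted p under 0.05, 3 were higher and 5 lower, which is 7.34% against 4.91% of all genes. The groups of 5 of the 109 genes did not overlap, against 2.75% of all genes. Of 32 regulators and active-zone partners, 17 differences were positive and the median was 0.0093. Cabp4, a calmodulin-like protein that modulates L-type channels of photoreceptors, read 4.92, 5.07, 4.65 and 5.04 in mutants, against 5.47, 5.31, 5.39 and 5.50 in controls. All mutants lay below all controls, with a difference of -0.50 ± 0.093 (limma adjusted p = 0.189). Nedd4l, a ubiquitin ligase of membrane channels, and Snap25, a SNARE protein that binds presynaptic calcium channels, differed by 0.19 ± 0.069 and -0.21 ± 0.089, with groups that overlapped.

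Among 20 genes of calcium extrusion and buffering, 5 differences were positive and 15 negative, with a median of -0.028. Ncald, the calcium sensor neurocalcin delta, read 9.90, 9.76, 9.87 and 10.03 in mutants, against 9.51, 9.63, 9.53 and 9.68 in controls, every mutant above every control (0.30 ± 0.075; limma adjusted p = 0.590). Vsnl1, the related sensor visinin-like protein, read 11.93 to 12.09 in mutants, against 12.12 to 12.42 in controls, every mutant below every control (-0.24 ± 0.080; adjusted p = 0.907). Hpca, or hippocalcin, differed by -0.21 ± 0.092 and Calb2, the calcium buffer calretinin of some interneurons, by 0.24 ± 0.11. Of 29 calcium-dependent kinases, phosphatases and transcription factors, 10 differences were positive, the median was -0.028, and 0 had a limma unadjusted p under 0.05, although the groups of Ppp3cc, a calcineurin subunit, did not overlap. Of 28 TRP relatives, leak channel and TRPC coupling genes, 15 were positive with a median of 0.010. Plcb2, a phospholipase C, averaged 3.60 in mutants and 3.78 in controls, every mutant below every control (-0.17 ± 0.064; limma adjusted p = 0.938).

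**Figure D5:**
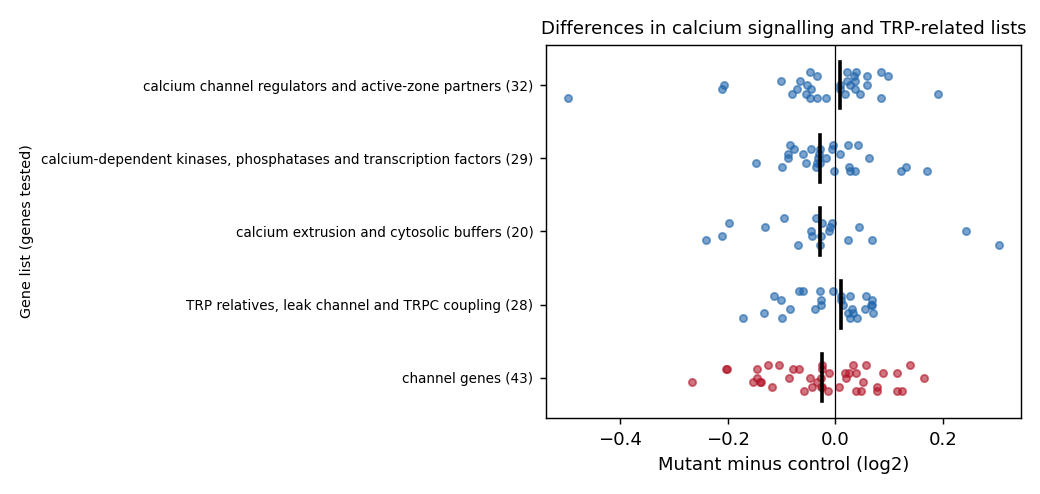
Difference between mutant and control pups (x axis, log2) for each tested gene, a point each, of 4 lists of calcium signalling and TRP-related genes and of the channel genes (y axis, genes tested in parentheses), with a black bar for the median. Medians lie between -0.028 and 0.010, and the point farthest to the left is Cabp4.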

How the data were processed

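Total RNA of microdissected layers II-IV from 8 pups was measured on Affymetrix Mouse Gene 1.0 ST arrays. The authors deposited log2 values per probe set, analysed with BRB-ArrayTools per the series' design text. Its version, background correction and normalization were not given in the sources used here. No detection calls and no scanner signals were used, so the number of arrays limits the precision. Probe sets were named through GEO's platform annotation, with symbols updated by Entrez ID (21698 of 21789 single-gene probe sets matched). Of 35556 probe sets, 21789 named 1 gene, 1621 several and 12146 had no name, and the probe set with the highest mean stood for each of 19938 genes. Mutant minus control differences were fitted to the deposited log2 values with limma 3.58.1 (R 4.3.3), genotype only, with no filter, Benjamini-Hochberg adjustment over all genes and a threshold of 0.05; no count model was used. Exact permutation tests used all 70 splits of 4 against 4. The p-values set each difference against the spread between pups, which limma moderates over all genes. Among mutants this spread includes any effect of sex. The fit was tested on simulated data with 200 changed genes among 19938. It recovered 75.4% of log2 changes of 0.5 and 98.9% of changes of 1, and 4.21% of its calls were unchanged genes. In the data 13 genes were called, and the members differed by at most 0.27 in size. The simulated shares therefore do not give the recovery of differences as small as those of the members. The members, the 4 pathway lists and the marker lists were chosen with earlier results of these data known. Values in every array are given for members with an unadjusted p under 0.05 or groups that do not overlap and for a set of genes chosen by role. Genes of the 4 pathway lists are named at an unadjusted p under 0.05, by smallest p and at most 4 a list. Ppp3cc is named only because its groups did not overlap. Alternatives covered normalization, dim genes, variance prior, array weights, replicate number, probe sets, threshold, sex-linked expression and each array left out.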

Additional observations from a re-analysis of the deposited data

Results flagged for a closer look

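In 4 of 90 groups of 4 arrays tested, 1 array stood apart from the other 3 by more than Dixon's 95% critical value, where chance gives about 5%. Trpm2 read 4.58 in mutant replicate 1, below the other mutants at 4.94 to 4.99. Trpv3 read 4.35 in mutant replicate 4, below the other mutants at 4.56 to 4.58. Trpv1 read 4.06 in control replicate 2, above the other controls at 3.79 to 3.8. Neurod6, the gene that carries Cre in mutants, read 9.41 in control replicate 2, above the other controls at 9.15 to 9.17.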

How the results depend on the processing

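In all 22 alternatives run, 0 channel genes and 0 pathway list genes were called in either direction by limma; at an unadjusted p under 0.05, 0 to 1 channel genes were higher and 1 to 4 lower. All 913 values of single genes under these alternatives stayed on the same side of the threshold. Of these, 912 either kept their sign or moved by less than the SD between arrays. The exception was Cacna2d4, which moved to 0.068 without both mutant arrays of high Xist, against -0.025 with them. This count is no measure of robustness, because some alternatives changed only the threshold, the prior or the genes kept, which leaves the differences as they were. The smallest limma adjusted p among these values was 0.19 (Neurod6), so none came near the threshold. Small differences did change sign, in 5 alternatives each for Cacna1d, Cacna1i, Cacnb2 and Trpm7. The median difference of the channel genes was 0.0192 among genes with a mean of at least 6. Over all genes, where 10 were called higher and 3 lower, 1 was lower under quantile normalization, median centring, cyclic loess and the minimum mean of 6. With the Y-linked level as a covariate 3 were higher and 1 lower, and without both arrays of high Xist 2 and 0. Leaving out each array gave 3 to 9 higher and 0 to 4 lower. With the replicate number as a block 4 were higher and 1 lower. The numbers were not treated as pairs, because the labels do not say that they pair pups. Deviations of same-numbered arrays correlated between -0.012 and 0.16 and those of other pairs between -0.10 and 0.071. The highest value, 0.16, was that of mutant replicate 4 with control replicate 4, and 2 of 4 mutant arrays correlated best with their own number. Whether arrays of the same number were processed together was not tested. The cause of the changes in these counts of calls was not tested either. With 4 arrays per group and a median standard error of 0.076, small differences in these genes were not detectable.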

Other observations

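A pair of genes with symbols close to those of the channels encode no channel and were not members. Trpc4ap, which encodes a protein that binds TRPC4, averaged 9.79 in mutants and 9.83 in controls, a difference of -0.041 ± 0.062 (SE, n = 4 per group). Trpc5os, the opposite-strand gene at Trpc5, averaged 2.40 in mutants and 2.51 in controls, a difference of -0.11 ± 0.077, and its groups overlapped.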
